A study of Rattus norvegicus with 8 samples.

Results

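Interferon response and class I antigen processing genes were examined after zinc oxide (ZnO) exposure of NR8383 cells, which are a line of alveolar macrophages of the rat. The genes were a list of 38, chosen by name and sorted by role into 7 transcription factors, 4 sensors, 21 effectors and 6 genes of class I antigen processing. A probe annotated to a rat RefSeq transcript was found for 37 of them, by 47 probes. None was matched under the symbol Ddx58, the RIG-I sensor gene. Genes were looked up by symbol, so a RIG-I probe listed under another symbol would have been missed. Of the 37 genes with a probe, 30 passed the filter on dim probes and were tested. They were among 13460 genes or unnamed transcripts that passed it, out of 39506 on the array. Of the 13460, 7982 had a gene symbol, and shares of all tested genes below are over all 13460.

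The exposed cells had received ZnO at 16 µg/mL for 4 h (4 arrays) or ZnO at 4 µg/mL for 4 h (4 arrays), and the series' design calls the 4 cultures of a dose biological replicates. Untreated cells were not analysed here, so no level below can be set against cells without ZnO. The sample descriptions give 200 passages for the 16 µg/mL cultures and 20 passages for the 4 µg/mL cultures, figures that are given as recorded and could include an error in the record, and the arrays of each dose shared 1 slide, scanned apart from the other. The effects of dose, passage, slide and scan cannot be told apart. Of 45598 probes, 31.5% to 39.3% exceeded background clearly on any 1 array, and no spot outside the controls was saturated. Of 14 macrophage markers with a probe, 11 passed the filter, Lyz2, Tyrobp and Fcer1g among them, while Marco, Msr1 and Adgre1 did not. Of markers with a probe, the filter was passed by 0 of 8 epithelial markers, 0 of 5 lymphocyte markers, 0 of 4 granulocyte markers, 1 of 6 fibroblast markers and 2 of 3 markers of plasmacytoid dendritic cells. Of the 11 tested macrophage markers 1 was higher at 16 µg/mL (Spi1, 0.81) and 2 were lower (Cd68, -1.74, and Itgam, -0.52), while the other 8 did not pass the test. Of the plasmacytoid markers, Bcl11a was lower by a difference of -2.80 and Tcf4 did not pass. Their part in the results below was not tested, and in RNA from a whole culture fewer cells of a type and less RNA per cell cannot be told apart.

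Interferons are secreted signals of infection. Cells start to make them when sensors of foreign nucleic acid switch on the factor IRF3, and the secreted interferon then acts through STAT2 and IRF9, which bind DNA in a complex at interferon-stimulated response elements. The genes so induced include antiviral effectors and the machinery that cuts proteins with the immunoproteasome, moves the peptides into the endoplasmic reticulum through the TAP transporter and loads them on class I molecules. Macrophages of the lung make and answer interferon when they meet viruses.

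The response element is the sequence feature by which many of these genes are known, so its occurrence is described first. RefSeq promoter windows of assembly GRCr8, from 250 bases before to 50 bases after the start of a gene, were given for 29 of the 38 genes. The motif searched was GAAA, any 2 bases and GAAA again, on both strands, which reads TTTC, any 2 bases and TTTC on the other strand. They stood in 18 of the 29 windows (62.1%) and in 3.92% of all 33469 windows. A window with the letters belonged to 2 of 4 genes that were higher at 16 µg/mL, 2 of 5 called lower (Trim25, whose probes disagree, among the 5), 11 of 16 that did not pass the test and 3 of 4 too dim to test. This motif was thus present in genes of every outcome, and a match describes the sequence and is no evidence of binding. The windows below show the divergent neighbours Tap1 and Psmb9, both higher at 16 µg/mL, then Psmb8, which did not pass the test, Oas1a, which was higher, and Ifi44, which was lower. Capitals mark matches to this motif on either strand, and each sequence runs 5′ to 3′ in the direction of its gene.
Tap1, chr20:4668494-4668793, minus strand: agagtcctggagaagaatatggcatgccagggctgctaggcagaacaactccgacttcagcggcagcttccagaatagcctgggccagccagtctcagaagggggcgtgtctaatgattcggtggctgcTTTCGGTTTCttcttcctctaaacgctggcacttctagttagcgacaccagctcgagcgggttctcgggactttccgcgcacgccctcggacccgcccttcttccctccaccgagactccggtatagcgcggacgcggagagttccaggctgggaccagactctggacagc
Psmb9, chr20:4668750-4669049, plus strand: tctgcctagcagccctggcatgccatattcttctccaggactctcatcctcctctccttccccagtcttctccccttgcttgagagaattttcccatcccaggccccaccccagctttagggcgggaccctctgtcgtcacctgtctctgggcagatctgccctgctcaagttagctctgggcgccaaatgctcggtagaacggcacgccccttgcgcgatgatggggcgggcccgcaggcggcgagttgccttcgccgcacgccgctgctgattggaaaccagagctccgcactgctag
Psmb8, chr20:4656982-4657281, minus strand: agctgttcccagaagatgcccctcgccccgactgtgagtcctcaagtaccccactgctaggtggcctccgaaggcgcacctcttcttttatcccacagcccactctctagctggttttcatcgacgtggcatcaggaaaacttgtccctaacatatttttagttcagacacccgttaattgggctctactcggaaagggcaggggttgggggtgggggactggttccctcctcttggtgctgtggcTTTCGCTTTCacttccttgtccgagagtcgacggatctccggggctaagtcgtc
Oas1a, chr12:41330216-41330515, plus strand: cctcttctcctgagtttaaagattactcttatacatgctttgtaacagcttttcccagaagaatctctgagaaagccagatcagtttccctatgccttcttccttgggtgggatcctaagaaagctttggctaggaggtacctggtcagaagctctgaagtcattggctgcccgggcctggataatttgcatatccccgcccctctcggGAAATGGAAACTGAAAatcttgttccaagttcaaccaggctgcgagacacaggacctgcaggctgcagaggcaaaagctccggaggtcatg
Ifi44, chr2:243303791-243304090, minus strand: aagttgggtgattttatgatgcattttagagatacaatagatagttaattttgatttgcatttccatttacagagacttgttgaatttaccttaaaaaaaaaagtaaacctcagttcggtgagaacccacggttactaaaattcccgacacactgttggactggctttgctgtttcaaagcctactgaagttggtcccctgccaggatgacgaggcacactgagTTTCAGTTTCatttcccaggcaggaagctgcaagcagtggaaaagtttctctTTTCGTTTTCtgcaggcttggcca

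The Tap1 match began 121 bases before the start of the gene and the Psmb8 match 4 bases before it. Oas1a held 2 matches that overlap, at 41 and 35 bases before the start, and Ifi44 held 2, at 26 bases before and at base 27 after it. The Psmb9 window held none, and the windows of Psmb9 and Tap1, which face away from each other, shared 44 bases. The Tap1 match lies between the starts of both genes but outside the shared bases, so the Psmb9 window does not reach it. The letters TTCNNNGAA, which STAT dimers bind and which read alike on both strands, stood in 6 of the 29 and in 8.87% of all windows. A fixed NF-kB binding sequence, searched on both strands, stood in 3 of the 29 windows (10.3%) and in 0.111% of all windows. Those 3 were Irf3 and Tap1, of the 4 genes that were higher, and B2m, of the 16 that did not pass. None was among the 5 called lower or the 4 too dim to test. Whether this sequence goes with the direction of a call was not tested, and 3 matches are too few to show it. A match to any of these sequences is no evidence of binding.

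Of the 30 tested genes, 10 (33.3%) passed the test for a difference between doses, 4 higher and 6 lower at 16 µg/mL. These counts go by the brightest probe of each gene and include Trim25, whose 2 probes disagree, and Gbp5, which passed the filter through the 4 µg/mL arrays alone. With only probes well above background on all 8 arrays, which leaves out Gbp5, the counts were 5 higher and 5 lower. The test was limma with Benjamini-Hochberg adjustment over all tested genes and a threshold of 0.05, and 41.7% of all tested genes passed it, 19.8% higher and 21.9% lower. The share among the 30 was not above that of all genes. The arrays of both doses did not overlap for 12 of the 30 (40.0%), against 39.9% of all tested genes. Levels below are log2 signals relative to the 75th percentile of each array, listed in the order of replicates 1 to 4, and differences are ZnO 16 minus ZnO 4 on the same scale. The median difference of the 30 genes was 0.03, with a range of -0.87 to 0.95, and that of all tested genes was 0.00. A call with a difference of at least 1 was made for 18.6% of all tested genes and for 0 of the 30. For 21 of the 30 the 95% interval of the difference lay wholly within 1 of zero.

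The split into higher and lower calls depended on how arrays were scaled to each other. The 4 higher and 6 lower calls became 8 and 1 with median scaling, 7 and 5 with quantile normalization, and 0 and 10 both without scaling and with scaling to the spike-ins. The median of all genes differed by 0.17, 0.03, -0.75 and -0.69 in these settings. The spike-in setting used the mean over all 10 spike-in probes, including those not clearly above background on every array. Normexp on the median signals, which changes both the background correction and the signal column, gave 8 and 2, with a median of 0.15 over all genes. The directions below are therefore relative to the array's 75th percentile. Spike-in probes, RNA added to every sample, differed between the slides by -0.68 to 1.62 on the same scale (median 1.19, 7 probes measured on all arrays). Every difference of the 30 genes was smaller than the span of these spike-in differences. Most of the measured spike-ins lay between 1.15 and 1.62, a shift they share on this scale. Their span is therefore no measure of the error of a single gene's difference.

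**Figure D1:**
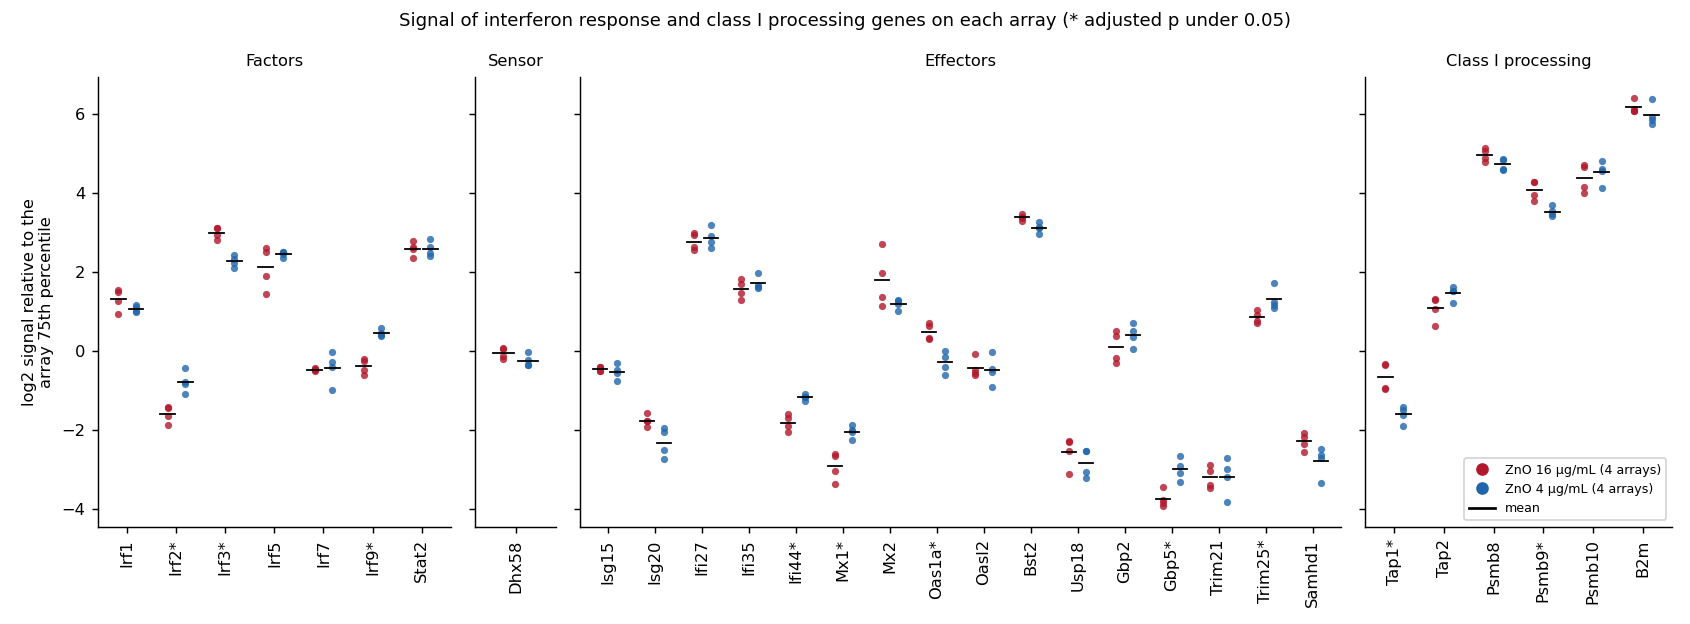
Log2 signal relative to the array's 75th percentile (vertical axis) of the 30 tested genes by role; red points are the 4 arrays at 16 µg/mL, blue points the 4 arrays at 4 µg/mL, black bars their means, and an asterisk marks an adjusted p under 0.05. Tap1, Psmb9, Irf3 and Oas1a stand higher at 16 µg/mL with no overlap of arrays, and Irf2, Irf9, Ifi44, Mx1, Gbp5 and the brighter Trim25 probe stand lower, on this scaling.

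Among the 7 transcription factors, all of which were tested, 1 was higher and 2 were lower at 16 µg/mL, with a median difference of -0.05. Irf3, the factor that nucleic acid sensors activate to start interferon production, had 2.92, 3.11, 3.12 and 2.81 at 16 µg/mL, against 2.23, 2.32, 2.09 and 2.42 at 4 µg/mL. Every array of the higher dose lay above every array of the lower dose, and the difference was 0.72 (SE 0.12, 1.65-fold, adjusted p = 0.00118). A dimmer Irf3 probe gave a difference of 0.84. Without scaling the Irf3 difference was -0.03, beside -0.75 for the median gene.

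Irf9, the DNA-binding part of the complex that answers interferon, had -0.27, -0.48, -0.20 and -0.62 at 16 µg/mL, against 0.37, 0.46, 0.40 and 0.57 at 4 µg/mL. It fell without overlap of arrays, by a difference of -0.84 (SE 0.13, adjusted p = 0.000832), and the call was kept in all 21 alternatives run. Its dimmer probe differed by -1.29, but it cleared background on 2 of 4 arrays of the higher dose and passed the filter through the lower dose alone, so it adds no support. Irf2, known as a repressor that competes with IRF1, had -1.43, -1.88, -1.45 and -1.65 at 16 µg/mL, against -0.80, -1.1, -0.44 and -0.83 at 4 µg/mL. The Irf2 arrays did not overlap (difference -0.81, SE 0.18, adjusted p = 0.00544). A call for Irf2 was not made with median scaling (-0.64, adjusted p = 0.0665), and its second probe was below background on every array.

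Stat2, the partner of IRF9, had 2.58, 2.64, 2.77 and 2.36 at 16 µg/mL, against 2.48, 2.62, 2.40 and 2.82 at 4 µg/mL. Its arrays overlapped throughout and the difference was 0.01 (95% interval -0.29 to 0.31). A call was thus made for Irf9 and not for Stat2, and whether their differences differ from each other was not tested. Irf5, a factor used by Toll-like receptors, had 1.90, 2.50, 2.60 and 1.45 at 16 µg/mL, against 2.45, 2.51, 2.35 and 2.49 at 4 µg/mL. Arrays 1 and 4 of the higher dose stood below all others for Irf5, and the difference of -0.34 did not pass (adjusted p = 0.258).

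Irf1, an activator of class I and other interferon genes, had 1.26, 1.54, 1.48 and 0.94 at 16 µg/mL, against 1.0, 1.11, 1.17 and 0.98 at 4 µg/mL. Array 4 of the higher dose was the lowest of all, the difference was 0.24 (adjusted p = 0.204), and without that array it was 0.36 (adjusted p = 0.0400). Irf7, which amplifies interferon production, differed by -0.05 (95% interval -0.47 to 0.37).

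Sensors of nucleic acid were mostly too dim to compare. Dhx58, the LGP2 helicase that modulates RNA sensing, was the sensor tested, with 0.05, 0.06, -0.12 and -0.21 at 16 µg/mL, against -0.37, -0.04, -0.37 and -0.24 at 4 µg/mL. These values overlap, and the difference was 0.20 (95% interval -0.09 to 0.50, adjusted p = 0.248). Ifih1, the MDA5 sensor of long double-stranded RNA, cleared background on 1 of 4 arrays at 16 µg/mL and 0 of 4 at 4 µg/mL. Zbp1, a sensor linked to necroptosis, did so on 0 of 4 arrays at 16 µg/mL and 2 of 4 at 4 µg/mL.

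Of the 21 effectors 16 were tested, with 1 called higher, 4 called lower by their brightest probe and 11 that did not pass, and a median difference of 0.01. The 4 include Trim25, which has no settled direction, and Gbp5, which was near background at 16 µg/mL. Oas1a, an oligoadenylate synthetase whose product activates RNase L, had 0.29, 0.63, 0.70 and 0.33 at 16 µg/mL, against -0.16, 0.00, -0.62 and -0.40 at 4 µg/mL. Each array of the higher dose was above each of the lower dose (difference 0.78, SE 0.17, 1.72-fold, adjusted p = 0.00442). A dimmer Oas1a probe differed by 0.39 and did not pass (adjusted p = 0.0797), and signal from other Oas1 genes of similar sequence cannot be told apart.

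Mx1, an antiviral GTPase of the dynamin family, had -2.67, -3.03, -3.38 and -2.62 at 16 µg/mL, against -1.88, -2.06, -2.0 and -2.26 at 4 µg/mL. It was lower without overlap of arrays, at a dim level (difference -0.87, SE 0.21, adjusted p = 0.00862). Its paralog Mx2 had 1.37, 1.96, 2.71 and 1.14 at 16 µg/mL, against 1.29, 1.18, 1.02 and 1.25 at 4 µg/mL. The 16 µg/mL arrays of Mx2 were spread widely, with replicate 4 inside the range of the lower dose, and the difference of 0.61 did not pass (adjusted p = 0.111, and 0.83 with adjusted p = 0.0304 without that array).

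Ifi44, an interferon-induced gene with antiviral activity, had -1.61, -1.91, -2.06 and -1.69 at 16 µg/mL, against -1.17, -1.26, -1.16 and -1.08 at 4 µg/mL. Its arrays did not overlap, with a difference of -0.65 (SE 0.15, adjusted p = 0.00729), and a second probe of similar brightness fell as well, by a difference of -0.91. Gbp5, a guanylate-binding protein that promotes inflammasome assembly, had -3.44, -3.93, -3.84 and -3.77 at 16 µg/mL, against -3.08, -2.91, -2.67 and -3.31 at 4 µg/mL. Gbp5 was among the dimmest of the tested genes, and it cleared background on 2 of 4 arrays of the higher dose. It passed the filter through the lower dose alone, where it was brighter, so its call is no independent sign of a fall. The Gbp5 difference was -0.75 (SE 0.23, adjusted p = 0.0246), and leaving out replicate 2 or 3 of either dose ended the call (-0.72 to -0.64, with adjusted p between 0.0523 and 0.0786). With normexp the calls of Ifi44 (-0.11, adjusted p = 0.466), Mx1 (-0.15, adjusted p = 0.421) and Gbp5 (0.08, adjusted p = 0.772) were lost, and with median scaling all 3 were lost as well, at -0.48, -0.71 and -0.58 in the same order.

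Trim25, the ubiquitin ligase that acts on RIG-I, was measured by 2 probes that went opposite ways. The brighter had 1.03, 0.75, 0.91 and 0.71 at 16 µg/mL, against 1.24, 1.09, 1.16 and 1.71 at 4 µg/mL. The dimmer had -1.90, -1.81, -2.07 and -2.05 at 16 µg/mL, against -2.76, -2.77, -2.44 and -2.25 at 4 µg/mL. Neither probe had overlapping arrays, and each passed when all probes were fitted on their own, with differences of -0.45 (adjusted p = 0.0381) and 0.60 (adjusted p = 0.0235). The mean of both probes differed by 0.07 (adjusted p = 0.727), so these data give Trim25 no direction as a gene. The call of the brighter probe was also lost without any 1 of ZnO 4 replicates 1, 3 and 4 and ZnO 16 replicates 2, 3 and 4 (-0.50 to -0.31, adjusted p of 0.0537 to 0.0834).

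**Figure D2:**
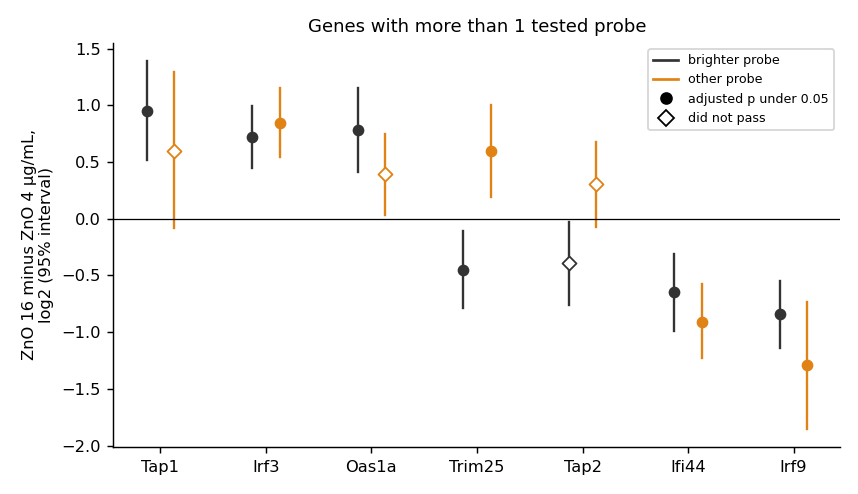
Difference between doses (ZnO 16 minus ZnO 4, log2, with 95% interval) for each probe of the 7 genes that had 2 tested probes, the brighter in black and the other in orange; filled circles passed at an adjusted p under 0.05 and open diamonds did not. Both probes point the same way for Tap1, Irf3, Oas1a, Ifi44 and Irf9, the other Irf9 probe having passed the filter through the 4 µg/mL arrays alone, and opposite ways for Trim25 and Tap2.

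Bst2, the tetherin that holds budding virus at the cell surface, had 3.39, 3.47, 3.28 and 3.36 at 16 µg/mL, against 3.27, 3.11, 2.96 and 3.13 at 4 µg/mL. The arrays narrowly missed each other, and the difference of 0.26 did not pass (adjusted p = 0.0814). Ifi27, a classical interferon-induced gene, had 2.92, 2.62, 2.55 and 2.97 at 16 µg/mL, against 2.90, 2.76, 2.59 and 3.18 at 4 µg/mL. Its values overlapped throughout, with a difference of -0.09 (95% interval -0.44 to 0.25). Ifi35, another interferon-induced gene, had 1.46, 1.82, 1.70 and 1.29 at 16 µg/mL, against 1.61, 1.98, 1.59 and 1.66 at 4 µg/mL. These values overlapped as well, with a difference of -0.14 (adjusted p = 0.463).

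Isg20, an RNA exonuclease, also had arrays that did not overlap, with a mean of -1.77 ± 0.15 at 16 µg/mL and -2.32 ± 0.38 at 4 µg/mL (SD, n = 4 each). Its difference of 0.55 fell just short (adjusted p = 0.0547) and passed without ZnO 4 replicate 4 (0.68, adjusted p = 0.0293). Samhd1, which depletes nucleotides needed for reverse transcription, differed by 0.50 (adjusted p = 0.104), and by 0.31 (adjusted p = 0.247) when a low-signal area of ZnO 4 replicate 4, which covers its probe, was masked. Of the remaining effectors, the ubiquitin-like modifier Isg15 differed by 0.07 and Usp18, the protease that removes it, by 0.28. Oasl2, another oligoadenylate synthetase family gene, differed by 0.05. The GTPase gene Gbp2 differed by -0.30 and Trim21, a cytosolic receptor for antibody-bound virus, by -0.02. None of these 5 passed, with adjusted p of 0.284 to 0.955.

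The 5 effectors that were not tested were near background at both doses. Ifit2 cleared background on 0 of 4 arrays at 16 µg/mL and 1 of 4 at 4 µg/mL, and Ifit3 on 1 of 4 and 2 of 4 in the same order. Oasl did so on 2 of 4 and 1 of 4, and the RNA-editing enzyme gene Adar on 0 of 3 and 1 of 4. The Adar spot of ZnO 16 replicate 4 was flagged as an outlier and left out. Rsad2, which encodes viperin, was below background on every array by both of its probes. At this signal a difference in these genes was not detectable, which does not show that there was none.

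**Figure D3:**
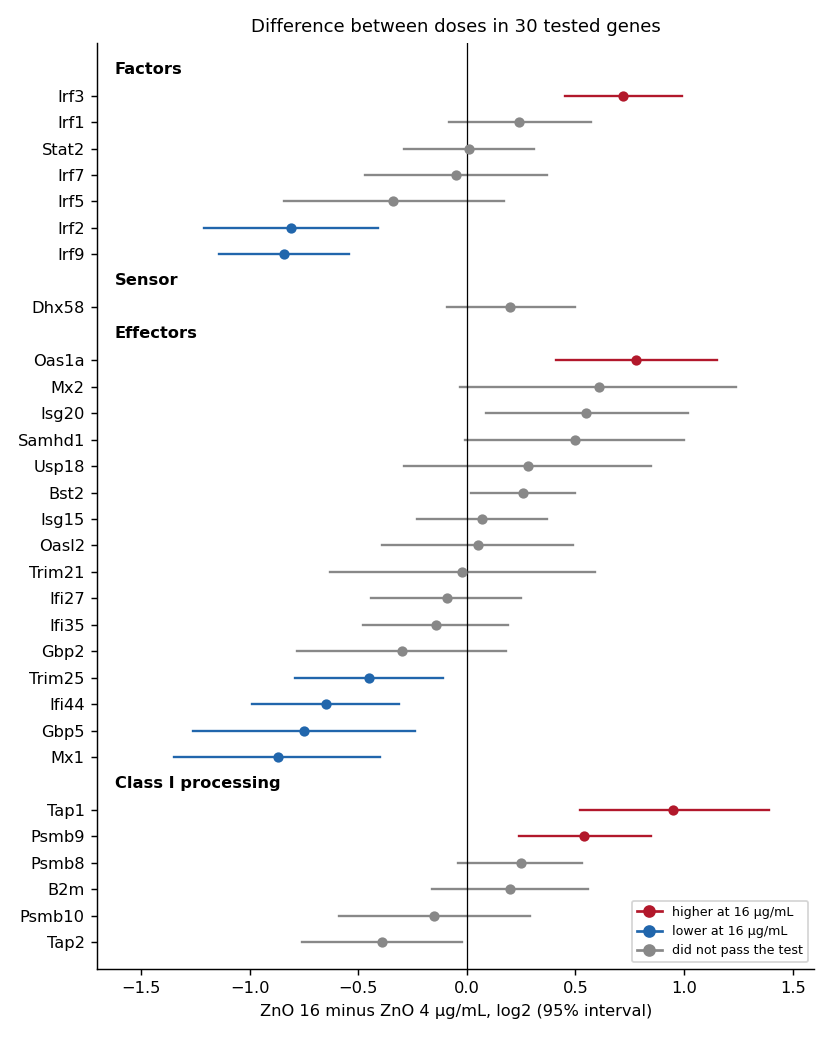
Difference between doses (ZnO 16 minus ZnO 4, log2, horizontal axis) with 95% interval for the 30 tested genes, grouped by role and ordered within a role by the difference; red marks calls higher at 16 µg/mL, blue calls lower and grey genes that did not pass. Called genes, all between -0.87 and 0.95, stand on both sides of 0 among the factors and effectors. Of 6 class I processing genes 2 were called, both higher, where 19.8% of all tested genes were higher and 21.9% lower. So few calls give that group no direction.

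Class I processing genes had 2 of 6 higher, 0 lower and a median difference of 0.22. Of all tested genes 19.8% were higher and 21.9% lower, so 2 calls of 6 give this group no direction. Of 13 other tested genes of class I molecules and their loading, described below, 3 were higher and 3 lower. Tap1, a subunit of the peptide transporter of the endoplasmic reticulum, had -0.93, -0.34, -0.36 and -0.97 at 16 µg/mL, against -1.90, -1.49, -1.63 and -1.41 at 4 µg/mL. The arrays did not overlap and the difference, 0.95 (SE 0.20, 1.94-fold, adjusted p = 0.00373), was the largest in size of the 30; a dimmer Tap1 probe gave 0.60 (adjusted p = 0.139). Psmb9, a catalytic subunit of the immunoproteasome and the divergent neighbour of Tap1 shown above, had 3.79, 4.27, 4.27 and 3.95 at 16 µg/mL, against 3.46, 3.68, 3.42 and 3.54 at 4 µg/mL. All arrays of the higher dose were above those of the lower dose for Psmb9 (difference 0.54, SE 0.14, 1.46-fold, adjusted p = 0.0103). With normexp the Psmb9 difference was 0.17 and did not pass (adjusted p = 0.307), while Tap1 kept its call (0.71, adjusted p = 0.00582). The Tap1 call was lost without scaling (0.20, adjusted p = 0.692) and with spike-in scaling (0.26, adjusted p = 0.544). The Psmb9 difference turned to -0.21 without scaling and -0.15 with spike-in scaling, above the median gene in both.

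The remaining immunoproteasome subunits overlapped between doses. Psmb8 had 4.87, 5.14, 5.06 and 4.78 at 16 µg/mL, against 4.60, 4.86, 4.57 and 4.84 at 4 µg/mL, a difference of 0.25 (95% interval -0.04 to 0.53, adjusted p = 0.152). Psmb10 had 4.14, 4.71, 4.64 and 3.99 at 16 µg/mL, against 4.60, 4.81, 4.56 and 4.12 at 4 µg/mL, a difference of -0.15 (95% interval -0.59 to 0.29, adjusted p = 0.572). The intervals of Psmb8, Psmb9 and Psmb10 overlap, and the differences between the subunits were not tested.

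B2m, the light chain shared by class I molecules, had 6.07, 6.07, 6.12 and 6.41 at 16 µg/mL, against 5.91, 5.74, 5.83 and 6.38 at 4 µg/mL. Replicate 4 was the highest at both doses, and the difference of 0.20 did not pass (adjusted p = 0.339). Tap2, the other half-transporter gene, differed by -0.39 on its brighter probe (adjusted p = 0.0813) and by 0.31 on its dimmer probe (adjusted p = 0.169), so neither passed and the probes disagreed in sign.

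Other genes of interferon signalling and class I processing, from a list of 95 with a probe for 74, were compared in the same way. Of the 56 tested, 8 were higher and 11 lower at 16 µg/mL, where 19.8% of all tested genes were higher and 21.9% lower, with a median difference of -0.15 and a range of -2.16 to 1.64. Calls with a difference of at least 1 numbered 7 of the 56, against 18.6% of all tested genes. The 8 higher calls became 4 without ZnO 4 replicate 3, 5 without ZnO 4 replicate 2 and 5 without ZnO 16 replicate 2.

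The ligands Ifnb1 and Ifng and the feedback inhibitor Socs1 did not pass the filter on dim probes. Among 10 tested receptors, kinases, STAT and SOCS genes 1 was higher and 2 were lower. Socs3, a feedback inhibitor of cytokine signalling, had 0.76, 0.69, 0.81 and 0.19 at 16 µg/mL, against -1.24, -0.87, -1.01 and -1.01 at 4 µg/mL. It was 3.12-fold higher with no overlap (difference 1.64, SE 0.16, adjusted p = 3.75e-05). Stat3, a transcription factor that answers interleukin 6 family signals, had -0.54, -0.52, -0.33 and -0.36 at 16 µg/mL, against 1.0, 0.99, 1.1 and 1.23 at 4 µg/mL. Stat3 fell clear of the spread between arrays (difference -1.52, SE 0.12, adjusted p = 7.65e-06), and Ifngr2, a chain of the interferon gamma receptor, fell by 0.65 on the log2 scale (adjusted p = 0.00146). The receptor gene Ifnar1 differed by -0.23 (adjusted p = 0.481) and the kinase gene Tyk2 by 0.11 (adjusted p = 0.705).

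Among 8 tested genes of other IRF and nucleic acid signalling 2 were higher and 1 was lower. Trex1, a DNA exonuclease, differed by 0.57 (adjusted p = 0.0268) and Ikbke, a kinase of IRF3, by 0.53 (adjusted p = 0.0234). Mavs, the mitochondrial adaptor of RNA sensing, differed by -0.66 (adjusted p = 0.0253). None of these 3 calls held on leaving out each array in turn. Trex1 lost its call on leaving out ZnO 16 replicate 2 or 3 and on leaving out ZnO 4 replicate 1 or 3, Ikbke without replicate 2 or 3 of either dose, and Mavs without ZnO 4 replicate 4 or ZnO 16 replicate 1, with adjusted p of 0.0517 to 0.0742 over these.

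Among 25 tested other induced genes 2 were higher and 5 lower. Igtp, an immunity-related GTPase, had 3.13, 2.72, 3.12 and 2.54 at 16 µg/mL, against 4.65, 4.66, 4.48 and 4.83 at 4 µg/mL. This was a fall without overlap (difference -1.78, SE 0.16, adjusted p = 1.41e-05). Rtp4, an interferon-induced transmembrane protein gene, fell by 1.58 on the log2 scale (adjusted p = 2.80e-05) and the chemokine gene Cxcl10 by 2.16 (adjusted p = 0.000157). Sp140, a nuclear body protein gene, rose by 0.85 (adjusted p = 0.000470). Ifitm2, an inhibitor of virus entry, differed by 0.47 (adjusted p = 0.0262), and leaving out ZnO 16 replicate 1 or 2 or ZnO 4 replicate 2, 3 or 4 ended that call (0.39 to 0.49, with adjusted p between 0.0519 and 0.0683).

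Among 13 tested genes of class I molecules and their loading 3 were higher and 3 lower. RT1-A2, a class I heavy chain gene, had 4.83, 5.17, 4.89 and 4.56 at 16 µg/mL, against 5.81, 5.86, 5.88 and 5.92 at 4 µg/mL. Its arrays stood apart (difference -1.0, SE 0.14, adjusted p = 0.000328). RT1-A1 differed by -0.54 (adjusted p = 0.0348), a call that ended on leaving out ZnO 16 replicate 1 or 3 or any ZnO 4 array (-0.58 to -0.49, with adjusted p between 0.0558 and 0.0774), and RT1-CE10 rose by 0.55 (adjusted p = 0.00323). Class I heavy chain genes are near-identical copies that vary between rat strains, so the source of each of these signals is uncertain. The chaperone gene Calr rose by 0.58 (adjusted p = 0.00615) and Tapbpl, a peptide editor of class I molecules, fell by 0.78 on the log2 scale (adjusted p = 0.00662), a call lost with normexp (-0.35, adjusted p = 0.12). Psme3, a proteasome activator gene, differed by 0.59 (adjusted p = 0.0261), and leaving out ZnO 16 replicate 1 or 4 or ZnO 4 replicate 1, 2 or 3 ended that call (0.44 to 0.59, with adjusted p between 0.0515 and 0.0698).

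**Figure D4:**
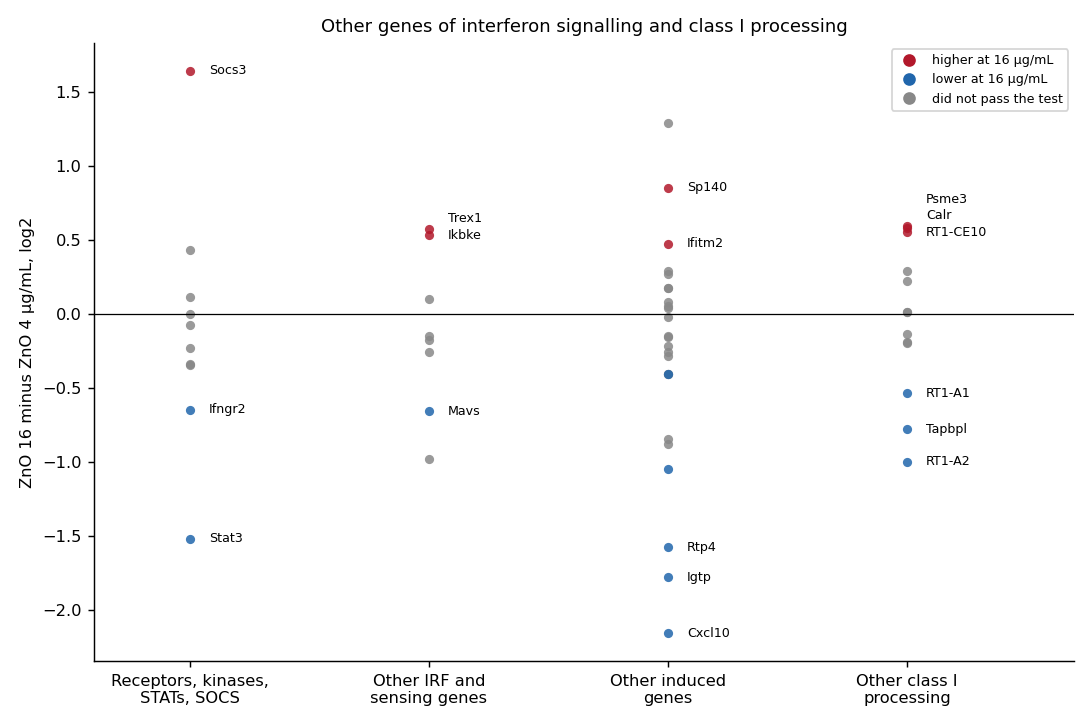
Difference between doses (ZnO 16 minus ZnO 4, log2, vertical axis) of 56 tested genes of interferon signalling and class I processing outside the 38, in 4 groups; red points were higher at 16 µg/mL, blue points lower and grey points did not pass. Socs3 stands highest at 1.64 and Cxcl10 lowest at -2.16.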

How the data were processed

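RNA of 8 NR8383 cultures was labelled with Cy3 and hybridised to 1-colour Agilent arrays, per the labels' protocols. The submitters' processing notes name Feature Extraction 11.0.1.1 as the source of the deposited files. Per the file headers, these hold a linear intensity per spot with background subtracted and spatial trend removed, and no scaling between arrays. Deposited 0 or 1 flags mark outlying, saturated and well-above-background spots; these other columns were used as deposited by the authors. Accessions were matched without versions to RefSeq symbols of GRCr8 (46.3% of 45598 probes), for names only, since the headers name another build.

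The log2 signal minus each array's 75th percentile was used. Outlier-flagged spots were left out, spots of a probe were averaged, a probe was kept when well above background on at least 3 of 4 arrays of at least 1 dose, and the brightest probe stood for its gene. Doses were compared with limma 3.58.1 in R 4.3.3 (lmFit and eBayes with an intensity trend, two-sided). The same fit was also run on simulated data with the means and spread of these genes. Probes of a gene were also fitted singly, among all probes kept. The number of arrays limits the precision.

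The members and lists were chosen with earlier results of these data known. Values on every array are given for called members and, in each role, for the 3 brightest tested members that were not called; of the other pathway genes, the 3 largest called differences in each direction per group are named. Mx2, Irf7, Isg20, Samhd1, Ifnar1, Tyk2 and the remaining members were given values beyond this rule, after these were seen. Same-numbered arrays were not treated as pairs. Alternatives covered background correction, scaling, filters, flags, low-signal areas, probe choice, the variance model, a replicate block and each array left out.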

Additional observations from a re-analysis of the deposited data

Results flagged for a closer look

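In 3 of 94 groups of 4 arrays examined, 1 array stood apart from the other three by more than Dixon's 95% limit; chance alone marks about 1 in 20 such groups. B2m stood at 6.41 on ZnO 16 replicate 4 and between 6.07 and 6.12 on the other arrays of that dose. Mavs stood at 0.30 on ZnO 4 replicate 4 and between -0.01 and 0.01 on the others. Tapbpl stood at -2.0 on ZnO 4 replicate 3 and between -1.47 and -1.38 on the others. Leaving out ZnO 4 replicate 4 ended the Mavs call, and the Tapbpl call was kept without any 1 array but lost with normexp (-0.35, adjusted p = 0.12).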

How the results depend on the processing

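Among the 38 genes there were 4 higher and 6 lower calls, against 8 and 2 with normexp on the median signals, which changes the background correction and the signal together. Scaling alone gave 8 and 1 with median scaling, 7 and 5 with quantile normalization, and 0 and 10 without scaling or with spike-in scaling. Other pathway genes had 0 higher and 19 lower without scaling and 1 and 18 with spike-in scaling, and all genes 229 and 4417 without scaling and 255 and 4413 with spike-in scaling. Unscaled differences turned negative for Irf3 (-0.03), Psmb9 (-0.21), Trex1 (-0.18), Ikbke (-0.22), Ifitm2 (-0.29), Psme3 (-0.17), Calr (-0.17) and RT1-CE10 (-0.20); with spike-in scaling so did Psmb9 (-0.15), Trex1 (-0.12), Ikbke (-0.16), Ifitm2 (-0.22), Psme3 (-0.10), Calr (-0.11) and RT1-CE10 (-0.14). In both settings the median of all genes was shifted down by more than these values. Gbp5 turned to 0.08 with normexp and Trim25 to 0.07 with the mean of its probes; the cause was not tested, except that the Trim25 probes differ in sign. Leaving out 1 array gave 4 to 6 higher and 4 to 6 lower calls among the 38 genes, 4 to 7 and 9 to 13 among other pathway genes, and 1941 to 2758 and 2416 to 2818 among all genes. Over 47 named genes and the alternatives that gave a value, 875 outcomes kept the call, where a gene that passed in neither fit counts as kept. With the sign unchanged, 68 lost the call and 26 gained it. In 17 the sign changed and a call was made in at least 1 of the 2 fits. Such a change need not be a call the other way: Irf3 without scaling (adjusted p = 0.949) and Gbp5 with normexp (adjusted p = 0.772) were no longer called. Deviations of same-numbered arrays correlated at -0.22 to 0.40, and 4 of 8 arrays correlated best with their own number. With 4 arrays of each dose this check cannot decide whether the numbers pair the arrays. With a replicate block the 38 genes had 5 higher and 5 lower calls, other pathway genes 7 and 10, and all genes 2591 and 2881. Signal over background limits Gbp5 and the 7 genes not tested. Mx1 was dim but cleared background on 4 of 4 arrays of each dose. Its call was kept with only probes well above background on all 8 arrays (-0.87, adjusted p = 0.00595) and lost with normexp (-0.15, adjusted p = 0.421).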

Other observations

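Parp14, an interferon-induced ADP-ribosyltransferase gene, was lower at 16 µg/mL, with -0.16 ± 0.55 at 16 µg/mL and 0.89 ± 0.25 at 4 µg/mL (SD, n = 4 each; difference -1.05, adjusted p = 0.00768). Slfn2, a Schlafen family gene, was also lower, with 3.28 ± 0.17 at 16 µg/mL and 3.69 ± 0.07 at 4 µg/mL (difference -0.41, adjusted p = 0.0179). Eif2ak2, the RNA-activated kinase PKR, had the largest positive difference among other induced genes that were tested, 1.29, but did not pass (adjusted p = 0.0793). It cleared background on 3 of 4 arrays at 16 µg/mL and 2 of 4 at 4 µg/mL. For Eif2ak2, ZnO 4 replicate 4 stood at -6, and the other arrays of that dose at -3.71, -3.85 and -3.78, so the difference leans on that array. Eif2ak2 was not among the genes examined above for an array that stood apart. Cxcl9, a chemokine gene induced by interferon gamma, cleared background on 0 of 4 arrays at 16 µg/mL and 4 of 4 at 4 µg/mL. Cxcl9 thus passed the filter through the lower dose alone, where it was brighter. Its difference of -0.85 did not pass the test (adjusted p = 0.115). The interval of that difference, -1.75 to 0.04, includes no change, so no smallest fall can be given. Ube2l6, the enzyme that conjugates Isg15, differed by -0.88 and did not pass (adjusted p = 0.0596). It cleared background on 1 of 4 arrays at 16 µg/mL and 3 of 4 at 4 µg/mL, so it passed the filter through the lower dose alone. These genes were picked after their values were seen.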
